A study of Mus musculus with 2084 samples.

Results

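The cells described here are quiescent neural stem cells with the label qNSC2, taken from the ventricular-subventricular zone (vSVZ) of mice that lack interferon receptors. They were chosen by 4 labels together: cell type qNSC2, the biological replicate lettered pJ, a knockout genotype, and a treatment of either 2 days post ischemia or naive. This gave 67 cells at 2 d after ischemia and 31 naive cells, 98 of the 1981 labelled cells in the RNA count table and of its 193 qNSC2 cells. The RNA counts come from a combined transcriptome and epigenome assay of single sorted cells of the neural stem cell lineage, and the epigenome was not analysed here.

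Neural stem cells of the adult vSVZ are astroglia that line the lateral ventricle and make neuroblasts for the olfactory bulb. Most of them are quiescent and share Apoe, Slc1a2, Slc1a3 and Aldoc with parenchymal astrocytes. After ischemia, astroglia become reactive: they fill with the intermediate filament proteins encoded by Gfap and Vim and answer cytokines of the interleukin-6 family, which signal through gp130, JAK kinases and STAT3. Interferons use their own receptors but the same family of kinases and STAT proteins.

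The 2 d knockout cells carry the genotype label TiCY-IFN(A/G)R KO. Per the labels' protocols, TiCY mice were given tamoxifen at 2 months of age, which turns on the reporter eYFP wherever Tlx (Nr2e1), a gene of neural stem cells, is expressed, and so marks their progeny. Both carotid arteries were occluded 2 weeks later, and the 2 d cells were sorted 48 h after that. The naive knockout cells carry the label IFN(A/G)R KO, without the TiCY prefix, and their age is not given. The labels name no deleted gene, and each letter holds 1 or more mice, individual or pooled. For orientation, values are also given for qNSC2 of TiCY mice with intact receptors, of which there were 5 cells at 2 d (letter pI) and 39 naive cells (letter pM).

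Each knockout arm is 1 letter, and the arms lie on separate plates, so plate, mouse, TiCY background and ischemia cannot be told apart. The main comparison therefore has no test. Counts were summed over the cells of an arm and scaled to CPM, which puts each arm on the same total, and differences are log2 ratios of the 2 d to the naive CPM with 5 CPM added to each. Intervals are exact 95% intervals that cover counting error only, and reads without molecular identifiers are not independent molecules. A gene was looked at when its mean over the arms was at least 10 CPM and at least 10% of cells, as a mean of the arms, had a count.

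All 67 and all 31 cells come from the GLAST sort of the vSVZ by their names. The 2 d cells held 4021 to 353535 counts (median 133820, 9624595 in all) and the naive cells 30477 to 238289 (median 171091, 4922105 in all). A median of 5385 genes had a count in a 2 d cell and 4089 in a naive cell. The 2 d cells were thus shallower but held more genes. Shares of cells with a count are therefore also given after each cell was thinned to 50000 counts, which left 52 cells at 2 d and 30 naive cells. No pair of these cells had identical counts, and 7 well names occur in both arms.

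The receptor genes checked the genotype labels. Ifnar1, which encodes the signalling chain of the type I interferon receptor, had 16 CPM in 2 d and 8.74 CPM in naive knockout qNSC2, against 69.4 CPM in 2 d and 61.3 CPM in naive TiCY qNSC2. Ifngr1, the ligand-binding chain of the interferon gamma receptor, had 1.14 and 0.406 CPM in those knockout arms and 10.2 and 10.7 CPM in those TiCY arms. Both genes were lower in each knockout arm than in each TiCY arm. The partner chains did not show this order: Ifnar2 had 49.0 and 41.4 CPM in the knockout arms against 41.0 and 40.2 CPM in the TiCY arms, and Ifngr2 had 8.94 and 20.7 CPM against 15.9 and 4.94 CPM. A summed count does not show whether a transcript is complete.

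The astroglial label held in both arms. The 8 astrocyte markers together took 5581.5 to 38830.3 CPM per cell at 2 d (median 17584.4) and 5728.5 to 40561.9 CPM in naive cells (median 20045.8), so the ranges overlap almost fully. Apoe, a lipid carrier made by astroglia, had 18935.6 CPM at 2 d and 17957.2 CPM in naive cells, with a count in every cell of both arms. In 0 of the 67 and 0 of the 31 cells did the markers of any other type tested outweigh the astrocyte markers. The types tested did not include vSVZ astrocytes, which are astroglia as well. All 11 genes of the qNSC2 list were looked at, and 4 were at least 2-fold higher at 2 d and 0 lower. Their median log2 ratio was 0.74, and of all genes 16.2% were higher and 18.5% lower. Of labelled vSVZ knockout cells, 29.4% at 2 d and 23.1% of naive ones were qNSC2, and 15.8% and 59.0% were vSVZ astrocytes. Whether the qNSC2 label covers the same cells in both arms was not tested. Of 12 microglial markers, 9 had 0 counts at 2 d, among them P2ry12, Tmem119, C1qa, Tyrobp and Ptprc; the list summed to 0 to 1036.5 CPM per cell at 2 d and 0 to 190 CPM in naive cells. The rest of that sum was mainly Cx3cr1, at 44.4 CPM at 2 d and 17.3 CPM in naive cells, a gene that overlaps others. Of 10 leukocyte markers 9 had 0 counts at 2 d, all 5 red blood cell markers had 0 in both arms, and so had Dcx of neuroblasts.

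Of 9819 genes looked at, 1595 were at least 2-fold higher at 2 d (16.2%) and 1812 at least 2-fold lower (18.5%), and the median log2 ratio was -0.06. Without the 1 cell with most counts of each gene in each arm, 2427 were higher and 1314 lower and the median was 0.22. How far single cells account for this shift was not tested, since leaving out 1 cell weighs more in 31 cells than in 67. The shares of 16.2% and 18.5% set the scale for every list count that follows, also where they are not repeated. Naive knockout against naive TiCY qNSC2, which differ in letter and genotype but not in ischemia, had 13.2% of genes at least 2-fold higher, 15.4% lower and 28.6% either way, close to the 34.7% of the 2 d comparison.

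**Figure D1:**
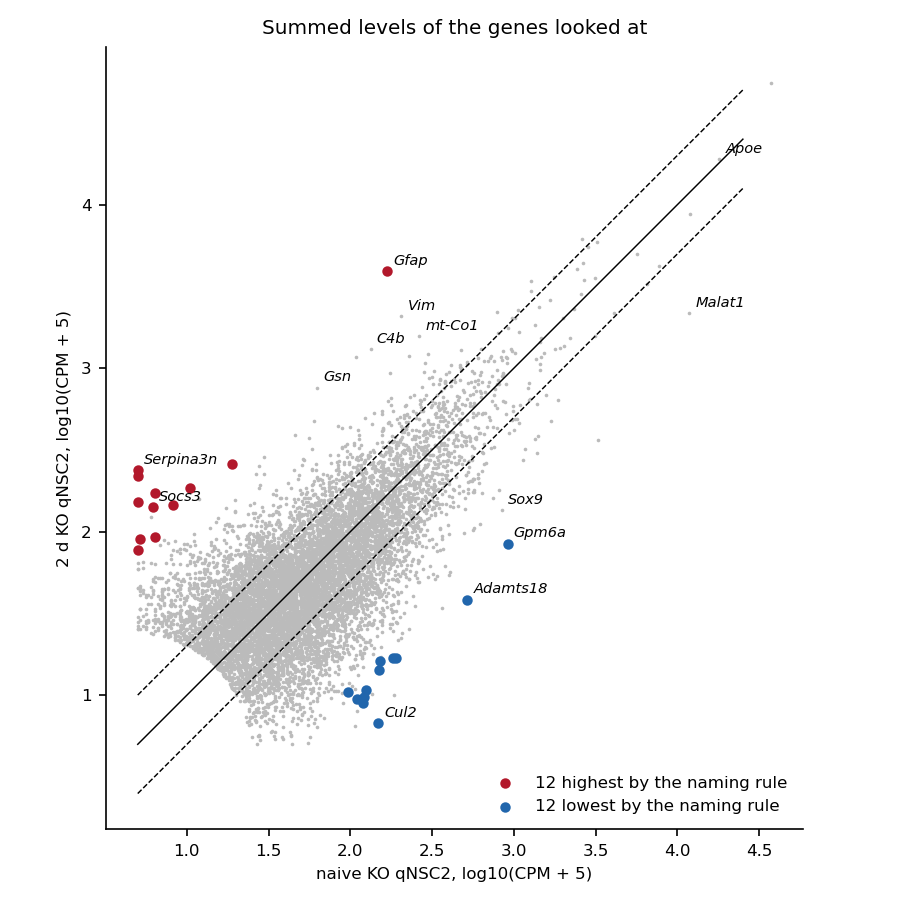
Each point is 1 of the 9819 genes; the vertical axis is the log10 of the summed level (CPM + 5) in 2 d knockout qNSC2 and the horizontal axis that in naive knockout qNSC2. The solid line marks equal levels and the dashed lines 2-fold; red and blue points are the 12 highest and 12 lowest genes by the naming rule, with Gfap at 3915.9 CPM at 2 d and 163 CPM in naive cells far above the upper line.

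The fit used for testing asks a different question, namely which genes change with time in a way shared by both genotypes. It uses 4 sums (2 d knockout, 2 d TiCY, naive knockout and naive TiCY qNSC2), has 1 residual degree of freedom and is no test of the knockout alone. Each genotype and time has 1 sum, so no arm is replicated. The error of a gene leans on the other genes, with 12.6 prior degrees of freedom beside the 1 residual. edgeR's quasi-likelihood test called 22 of 14167 genes higher at 2 d (0.155%) and 3 lower (0.0212%) at a Benjamini-Hochberg adjusted p under 0.05. Among the 22 were Gfap, Vim, Serpina3n, S1pr3, Socs3, Osmr, A2m, Gap43, Ifitm3, Ccnd1, Ier2, Hspb1 and mt-Co1. The 3 lower genes were Gpm6a, Adamts18 and Rasgrf1.

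The reactive astrocyte list held the strongest shift of the 44 lists examined. Of its 35 genes, 22 were looked at; 20 of these were at least 2-fold higher at 2 d, 0 lower, and the median log2 ratio was 2.13, against a background of 16.2% higher and a median of -0.06. Part of this follows from the filter, which takes the mean of both arms. Of the 35 genes, 13 had 0 counts in naive cells and 5 had 0 at 2 d. A gene with 0 naive counts could be looked at only where it was high at 2 d, here as in the other lists. The same 22 genes had a median of 1.17 in knockout vSVZ astrocytes of the same plates and 3.16 in TiCY qNSC2. After thinning, a 2 d cell had a count for 3 to 23 of the list's genes (median 8.5) and a naive cell for 1 to 7 (median 4.0).

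Gfap, which encodes the main intermediate filament protein of astrocytes (11:102887336-102900912, minus strand, GRCm38), carried the clearest difference. Per cell it ran from 0 to 16984.9 CPM at 2 d with a median of 1955.9 CPM, and from 0 to 1586 CPM in naive cells with a median of 0. It was counted in 66 of 67 cells at 2 d and in 11 of 31 naive cells, so most 2 d cells lay above the naive cells while the ranges still overlapped at the low end. The summed level was 24.1-fold higher (95% interval 22.5 to 25.9), a log2 ratio of 4.55. In TiCY qNSC2 the 5 cells at 2 d held 1395.8, 2199.9, 3169.7, 6538.9 and 13739.8 CPM, against a naive sum of 185 CPM. The shared time term gave a log2 change of 4.79 ± 0.59 (SE) with an edgeR adjusted p of 0.003.

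Vim encodes vimentin, the filament protein that pairs with GFAP. Per cell it ran from 0 to 11147.4 CPM at 2 d (median 998) and from 0 to 737 CPM in naive cells (median 170). Most naive cells already had it, 26 of 31, so the 10.4-fold difference of the sums (9.73 to 11.1) was one of level more than of detection. The shared time term for Vim had an edgeR adjusted p of 0.018.

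Serpina3n and S1pr3 were absent from the naive arm. Serpina3n encodes a secreted serine protease inhibitor that marks reactive astrocytes, and it belongs to a family of near-identical genes between which reads may be split. It had 232 CPM at 2 d and 0 counts in the 31 naive cells, which is at least 380-fold higher against a floor of 3 counts over the naive arm. It was counted in 27 of 67 cells at 2 d, with a highest cell of 2137.2 CPM and a median of 0. S1pr3, a receptor for sphingosine-1-phosphate, had 213 CPM at 2 d in 22 of 67 cells and 0 in naive cells, at least 350-fold higher. Both differences thus came from a minority of the 2 d cells. Their edgeR adjusted p for the shared time term was 0.019 for Serpina3n and 0.0017 for S1pr3.

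**Figure D2:**
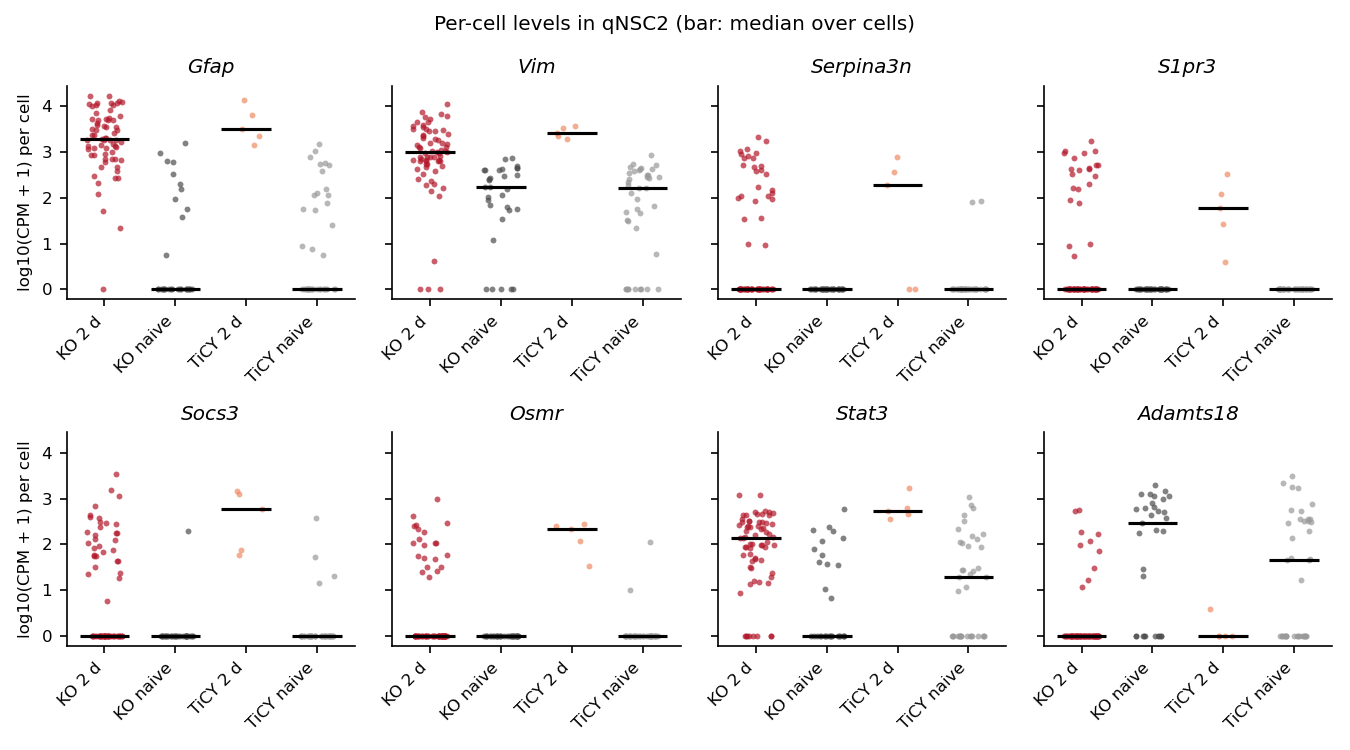
Each point is 1 qNSC2 cell and the vertical axis is log10(CPM + 1); groups from left to right are knockout (KO) 2 d, KO naive, TiCY 2 d and TiCY naive, and bars are medians over cells. Gfap is in 98.5% of KO 2 d and 35.5% of KO naive cells, whereas Serpina3n, S1pr3 and Osmr are in 31.3% to 40.3% of KO 2 d cells and in none of the KO naive cells.

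Other members of the list followed at lower levels. Serping1, the inhibitor of complement C1, had 70.8 CPM at 2 d and 3.66 CPM in naive cells, in 24 of 67 and 1 of 31 cells. Emp1, a membrane protein of reactive astrocytes and injured epithelia, had 35.8 CPM at 2 d and 2.03 CPM in naive cells, in 27 and 1 cells, but was under 2-fold against naive TiCY cells (0.66). Cd44, the hyaluronan receptor, had 36.2 CPM at 2 d and 6.09 CPM in naive cells. Each of these genes was counted in 1 of the 31 naive cells. Nes, which encodes the filament protein nestin, was higher by 2.25 on the log2 scale, Anxa2 by 1.88, S100a10 by 2.36, Lgals1 by 1.78 and Timp1 by 1.28. For Ptx3 and Tgm1 a single cell held 66.0% and 46.3% of the 2 d counts, and Ptx3 fell short of 2-fold without it (0.55). Fkbp5, a glucocorticoid-responsive co-chaperone, was higher by 2.44 against naive knockout cells but lower against naive TiCY cells (log2 -1.0). Lcn2, which encodes a secreted iron-siderophore carrier often used to mark inflamed astrocytes, had 3.53 CPM at 2 d in 2.99% of cells and was not looked at.

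The 2 d cells differed among themselves in how many of the minority genes they had. For Serpina3n, S1pr3, Socs3 and Osmr, a set put together after their values were seen, 14 of 52 thinned cells at 2 d had a count for none, 18 for 1, 8 for 2, 8 for 3 and 4 for all 4. In the naive arm 30 of 30 thinned cells had none of the 4, and the 1 naive cell too shallow to be thinned was the one with Socs3, at 197 CPM. Serpina3n, S1pr3 and Osmr had no counts in the naive arm, so the naive result follows from the choice of genes. Only the spread among the 2 d cells is described here. Gfap, in contrast, was counted in 51 of the same 52 cells. Cells with none of the 4 genes were therefore mostly Gfap-positive.

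**Figure D3:**
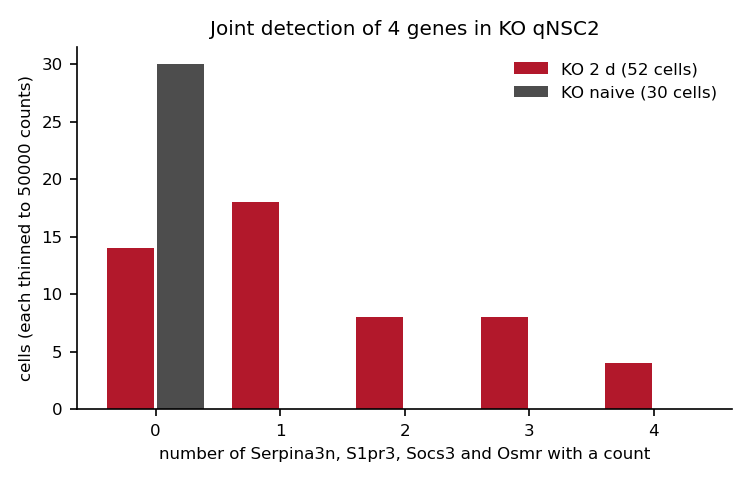
Bars give the number of knockout qNSC2 cells, each thinned to 50000 counts, by how many of Serpina3n, S1pr3, Socs3 and Osmr they had a count for; red bars are the 52 cells at 2 d and grey bars the 30 naive cells. The 2 d cells spread over 0 to 4 genes, with 14 at 0 and 4 at 4. All 30 naive cells sit at 0, which follows from the choice of genes; the naive cell left out for its depth had Socs3.

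Osmr and Socs3, a receptor chain and a feedback gene of the gp130 pathway, were among the highest genes of the comparison. Of 18 genes on the gp130 list, 14 were looked at, 5 of which were at least 2-fold higher and 1 lower, with a median log2 ratio of 0.82. The higher ones were Osmr, Il6st, Stat3, Socs3 and Cebpd. Other members stayed under 2-fold, among them Lifr (0.07), Il11ra1 (0.10), Tyk2 (0.71) and Pim1 (0.83), and Cntfr was lower (-1.16). Whether the pathway as a whole was more active was not tested. The count of 5 of 14 stands beside the 16.2% of all genes, and the list's median was 0.20 against naive TiCY cells.

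Osmr encodes the receptor chain that pairs with gp130 to bind oncostatin M. It had 72.6 CPM at 2 d in 21 of 67 cells, up to 953 CPM in 1 cell, and 0 counts in the 31 naive cells, at least 119-fold higher. One cell held 48.2% of the 2 d counts, and without it the log2 ratio was 3.14 in place of 3.96. All 5 TiCY cells at 2 d had it, at 32.9, 115, 219, 244 and 283 CPM, and the edgeR adjusted p of the shared time term was 0.035.

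Il6st, which encodes gp130 itself, had a median of 32.2 CPM per cell at 2 d (0 to 402 CPM) and of 0 in naive cells (0 to 390 CPM). It was counted in 47 of 67 and 11 of 31 cells, and its sum was 2.79-fold higher at 2 d (2.31 to 3.4). The naive reference matters here: naive TiCY qNSC2 had 130 CPM of Il6st, so that 2 d knockout cells were lower against them by 0.79 on the log2 scale (-0.79). Cntfr, the receptor chain for ciliary neurotrophic factor, had 95.2 CPM at 2 d and 218 CPM in naive cells, and was at least 2-fold lower by a log2 ratio of -1.16.

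Stat3, the transcription factor that these receptors activate, ran from 0 to 1219.8 CPM at 2 d (median 135) and from 0 to 598 CPM in naive cells (median 0). It was counted in 59 of 67 and 13 of 31 cells, and 90.4% against 43.3% after thinning, with sums of 201 and 58.5 CPM. Set against naive TiCY cells, the log2 ratio of Stat3 was 0.65 in place of 1.69, under 2-fold. The time term shared with TiCY cells did not pass, with an edgeR adjusted p of 0.19. The kinases stayed under 2-fold on the log2 scale used: Jak1 had 271 CPM at 2 d and 185 CPM in naive cells (0.54), and Jak2 31.7 and 15.6 CPM (0.83).

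Socs3, which STAT3 induces and which in turn blocks gp130 and its JAK kinases, had one of the steepest differences. It was counted in 32 of 67 cells at 2 d, with an upper quartile of 112 CPM and a highest cell of 3418.5 CPM, and in 1 of 31 naive cells, at 197 CPM. The sums of 136 and 1.22 CPM gave a 112-fold difference (51.2 to 305). The 5 TiCY cells at 2 d held 58.7 to 1476.8 CPM, and the edgeR adjusted p of the shared time term was 0.0022. Cebpd, a transcription factor downstream of STAT3, had 163 CPM at 2 d and 69.9 CPM in naive cells.

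The promoters of Socs3 and Gfap are shown because both genes are known STAT3 targets and each has 1 match to the letters TTCNNNGAA, the usual core of a STAT site, which reads alike on both strands. The sequences run 5′ to 3′ from 250 bases before to 50 bases after the RefSeq gene start on GRCm38.p6, from chr11:117969317-117969616 (Socs3, minus strand) and chr11:102897151-102897450 (Gfap, minus strand). Capitals mark the match, which begins 154 bases before the start in Socs3 and 2 bases before it in Gfap. For Gfap this RefSeq start lies inside the GENCODE gene span given above, which reaches further upstream.
Socs3: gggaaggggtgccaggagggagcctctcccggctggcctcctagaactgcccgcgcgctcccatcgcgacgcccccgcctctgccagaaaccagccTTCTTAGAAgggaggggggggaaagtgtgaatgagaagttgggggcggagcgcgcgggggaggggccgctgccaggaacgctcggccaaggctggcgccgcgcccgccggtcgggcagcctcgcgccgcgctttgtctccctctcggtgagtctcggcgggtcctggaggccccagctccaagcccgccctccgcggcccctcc
Gfap: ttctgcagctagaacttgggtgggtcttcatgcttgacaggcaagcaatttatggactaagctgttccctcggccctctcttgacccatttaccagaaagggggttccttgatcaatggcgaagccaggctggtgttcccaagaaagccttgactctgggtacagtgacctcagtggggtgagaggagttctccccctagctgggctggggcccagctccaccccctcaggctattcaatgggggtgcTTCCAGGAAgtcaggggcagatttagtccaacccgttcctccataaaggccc
The same letters occur in 8.30% of the 32851 promoter windows of that table. For the 12 genes named as highest, 9 had windows, 10 in all, and 3 of these held the letters (Socs3, Gfap and 1 of the 2 windows of Lcmt1). For the 20 reactive members past 2-fold, 16 had windows, and 3 of 18 held them. A match is a description of the sequence and does not show that STAT3 was bound.

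Immediate early genes, the first to be transcribed after a stimulus, were higher as a group. Of 24 on the list, 13 were looked at, 8 were at least 2-fold higher and 0 lower, and the median log2 ratio was 1.88. Jun, a subunit of the AP-1 transcription factor, had 1178.1 CPM at 2 d and 223 CPM in naive cells, in 50 of 67 and 13 of 31 cells. Fos, its partner, had 1073.6 and 281 CPM, in 43 and 9 cells. Both were uneven between cells, with medians of 198 CPM (Jun) and 58.4 CPM (Fos) at 2 d, upper quartiles of 1259.8 and 847 CPM, and naive maxima of 3672 and 5132.4 CPM. The arms thus overlapped over most of their range. Against naive TiCY cells Jun was still past 2-fold (2.09) and Fos was not (0.37).

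Among the others, Klf6 had 235 CPM at 2 d and 40.0 CPM in naive cells, and Ier2 58.2 and 3.25 CPM. Zfp36, which encodes a protein that destabilises cytokine mRNAs, had 57.9 and 5.08 CPM. Egr1 did not follow them, with 225 CPM at 2 d and 265 CPM in naive cells, where 1 naive cell held 77.3% of the counts. Fosb was higher by 2.94 against naive knockout cells, but against naive TiCY cells its log2 ratio was -0.69. Ier2 was the member that the shared time term called, with an edgeR adjusted p of 0.031. Tissue dissociation is known to induce immediate early genes, and its part in the result was not tested.

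Of the NF-kB and TNF list, 11 of 20 genes were looked at, with a median of 0.95. Of these 5 were at least 2-fold higher and 0 lower, beside 16.2% and 18.5% of all genes. Relb, a subunit of the non-canonical NF-kB dimer, had 83.2 CPM at 2 d and 3.45 CPM in naive cells, in 29 of 67 and 4 of 31 cells. Nfkbia, the inhibitor that NF-kB itself induces, had 65.4 and 13.4 CPM, and Nfkb2 had 32.5 and 7.92 CPM. Tnfrsf12a, the receptor for the cytokine TWEAK, had 104 and 25.6 CPM. The canonical subunits were nearer to level or turned the other way: Rela had 110 and 63.4 CPM, and Nfkb1 had 75.2 CPM at 2 d and 139 CPM in naive cells.

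The interferon-stimulated genes looked at were not higher as a group in the knockout cells. Most of the list was near or below the limit of detection. Of 40 on the list, 14 were looked at, with a median log2 ratio of -0.43. Of these 3 were at least 2-fold higher and 5 lower, beside 16.2% and 18.5% of all genes. Part of this follows from the filter. Ifih1, Ifit2 and Trim25 were under 10 CPM at 2 d and were looked at only because they were high in naive cells. Ifit3 was under 10 CPM in naive cells and was looked at through the 2 d arm. In TiCY qNSC2 the same 14 genes had a median of 1.12, with 7 higher and 3 lower, beside 21.8% and 27.3% of all genes there; the difference between the genotypes was not tested. Ifit1, Usp18 and Cxcl10 had 0 counts in both knockout arms. Irf7 had 0.831 CPM, Bst2 3.84 CPM and Isg15 0 CPM at 2 d, against 0, 0 and 3.25 CPM in naive cells. Over all 40 genes, the list summed to 1050.1 CPM at 2 d and 824 CPM in naive cells. Ifitm3, described next, is part of these sums. After thinning, a 2 d cell had a count for a median of 4.0 of the 40 genes and a naive cell for 3.0. At 2 d 10 of them had 0 counts, against 16 in naive cells, where fewer counts were summed.

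Ifitm3 was the exception with a broad difference. It encodes a membrane protein that hinders virus entry and is inducible by interferons of both types, and it also answers gp130 cytokines. Per cell it ran from 0 to 2820.2 CPM at 2 d (median 119) and from 0 to 371 CPM in naive cells (median 0), in 45 of 67 and 5 of 31 cells. The sums of 383 and 40.6 CPM were 9.42-fold apart (8.17 to 10.9), and the edgeR adjusted p of the shared time term was 0.026. Its level in TiCY cells was 506 CPM at 2 d and 36.1 CPM when naive, so the knockout arms lay near the TiCY arms of the same time.

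The promoter of Ifitm3 is shown because it holds the interferon-stimulated response element by its letters in a gene that was high without the receptors. Capitals mark GAAA, any 2 bases and GAAA again, searched on both strands, 2 matches that begin 3 and 20 bases after the gene start, in the window chr7:141010695-141010994 (minus strand, RefSeq on GRCm38.p6).
Ifitm3: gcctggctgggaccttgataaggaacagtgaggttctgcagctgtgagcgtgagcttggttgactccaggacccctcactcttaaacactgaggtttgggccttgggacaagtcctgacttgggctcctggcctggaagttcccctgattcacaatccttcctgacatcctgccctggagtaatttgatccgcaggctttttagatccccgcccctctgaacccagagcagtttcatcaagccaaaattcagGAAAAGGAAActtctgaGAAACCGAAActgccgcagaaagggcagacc
The letters occur in 3.44% of the 32851 windows, and in 18 of 36 windows of the interferon-stimulated list. A STAT match as above also begins 14 bases after the start and shares its last bases with the second of them.

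The other 2 higher members were Ifit3, with 17.9 CPM at 2 d and 3.86 CPM in naive cells (0.54 against naive TiCY cells), and Stat2, with 128 and 51.0 CPM. Stat2 encodes a transcription factor of type I interferon signalling.

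The 5 lower members were Ifih1, Ifit2, Trim25, Igtp and Ifit3b. Ifih1, which encodes a cytosolic sensor of viral RNA, had 5.09 CPM at 2 d and 180 CPM in naive knockout cells, but was counted in only 7 of 67 and 5 of 31 cells, up to 1858.4 CPM in 1 naive cell. Ifit2 had 6.03 and 45.1 CPM, in 8 and 3 cells. These differences thus rest on a handful of naive cells. In TiCY qNSC2 both stood the other way, with Ifih1 at 57.4 CPM at 2 d and 19.7 CPM when naive and Ifit2 at 21.6 and 2.72 CPM. Ifit3b was lower by a log2 ratio of -1.63, but against naive TiCY cells it was 0.35.

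Antigen presentation genes, which interferons also induce, were partly higher. Of 20 genes of the MHC class I list, 13 were looked at, with a median log2 ratio of 0.54. Of these 4 were at least 2-fold higher and 1 lower, beside 16.2% and 18.5% of all genes. Psmb10, a subunit of the immunoproteasome, had 124 CPM at 2 d and 18.7 CPM in naive cells, in 35 of 67 and 6 of 31 cells. Tapbp, which encodes the peptide-loading protein tapasin, had 197 and 71.3 CPM, and H2-K1, a class I heavy chain, had 129 and 50.2 CPM. Psme1, a proteasome activator, had 77.7 and 26.8 CPM, whereas in TiCY cells it had 6.26 CPM at 2 d and 38.1 CPM when naive. The MHC genes are a family of close relatives, so reads may be split between H2-K1 and its neighbours. Against naive TiCY cells Tapbp (0.98) and Psme1 (0.94) were just under 2-fold.

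Of the 27 genes of the chemokine, complement and secreted immune list 4 were looked at, with 2 higher (C4b and Serping1) and 1 lower (Tgfb2), and 11 had 0 counts at 2 d. C4b, the one counted in most 2 d cells, encodes complement component C4. Per cell it ran from 0 to 4303 CPM at 2 d (median 927) and from 0 to 682 CPM in naive cells (median 33.5), in 63 of 67 and 17 of 31 cells. The sums of 1308.3 and 128 CPM were 10.2-fold apart (9.45 to 11.1). Its near-identical copy C4a had 220 and 21.3 CPM, and reads may be split between them. The edgeR adjusted p of the shared time term was 0.081 for C4b. A2m, a broad protease inhibitor and STAT3 target, had 60.2 CPM in 13 of 67 cells at 2 d and 0 in naive cells, at least 98.7-fold higher, and 786 CPM in the 5 TiCY cells at 2 d. Its edgeR adjusted p of 0.00046 was the lowest of the fit.

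Gsn encodes gelsolin, which severs actin filaments and exists in a secreted form. Per cell it ran from 0 to 4521.3 CPM at 2 d (median 574) and from 0 to 467 CPM in naive cells (median 6.34). The sums of 756 and 57.5 CPM were 13.2-fold apart (11.7 to 14.9). TiCY qNSC2 had 86.5 CPM at 2 d and 47.8 CPM when naive, while knockout vSVZ astrocytes of the same plates had a log2 ratio of 3.83, near the 3.61 of knockout qNSC2. The time term shared by the genotypes did not call it (edgeR adjusted p of 0.31), and the difference between genotypes was not tested. Gsn overlaps another annotated gene on its strand, and its values are uncertain to that extent.

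Genes of the cytoskeleton list were higher without exception among those past 2-fold: 27 of 28 were looked at, 12 were higher, 0 lower, and the median log2 ratio was 0.92. Capg, an actin-capping relative of gelsolin, had 47.5 CPM at 2 d and 1.42 CPM in naive cells, in 22 of 67 and 3 of 31 cells. Tagln2 had 68.5 and 8.33 CPM, and Msn, which links actin to the membrane, 51.6 and 7.72 CPM. Tuba1a, an alpha-tubulin, had 1294.9 and 621 CPM. Actb, with 2009.6 and 1010.5 CPM, lay just under 2-fold (0.99). Against naive TiCY cells Msn (0.15) and Tuba1a (0.88) were under 2-fold, and Tagln2 was not (3.38).

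Ribosomal protein genes shifted together. All 36 of the list were looked at and all 36 had a ratio above 0 (0.52 to 1.75, median 1.00), with 18 at least 2-fold higher and 0 lower. Together they took 2.58% of the 2 d counts and 1.26% of the naive counts. Rpl3 had 916 CPM at 2 d and 381 CPM in naive cells, and Rps3 936 and 395 CPM. The list's median was 1.37 in knockout astrocytes, 0.18 in knockout aNSC and 0.10 in knockout neuroblasts of the same plates, and 1.84 in TiCY qNSC2; the differences between cell types were not tested. Against naive TiCY cells the log2 ratio of Rpl3 was 0.31 and that of Rps3 0.87, so neither reached 2-fold. For Rps24 the sign depended on the naive cells, with 1.75 against naive knockout and -0.23 against naive TiCY cells.

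Nuclear and mitochondrial RNA differed between the arms at the same time. Malat1, a long RNA that stays in the nucleus, ran from 623 to 5045.6 CPM per cell at 2 d (median 1812.6) and from 722 to 23029.8 CPM in naive cells (median 11125). It took 0.215% of the 2 d and 1.17% of the naive counts. Srsf5, a splicing factor, had 361 CPM at 2 d and 3283.8 CPM in naive cells. mt-Co1, encoded in the mitochondrial genome, had 1568.4 and 258 CPM, and mitochondrial genes together took 0.268% and 0.0755%. Malat1 was also lower in knockout astrocytes (log2 -1.55), aNSC (-2.17) and neuroblasts (-2.89), and these cell types share the plates. The part of this shift in the ribosomal protein result, and in every other list here, was not tested.

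Translation and respiration genes moved less. Of the translation list 23 of 24 were looked at, with 6 higher, 0 lower and a median of 0.45; Eif5a, a translation factor, had 179 CPM at 2 d and 22.8 CPM in naive cells, in 56 of 67 and 13 of 31 cells. Of the nuclear genes of oxidative phosphorylation 27 of 28 were looked at, with 6 higher, 0 lower and a median of 0.49. Cycs, which encodes cytochrome c, had 127 and 37.6 CPM, and was under 2-fold against naive TiCY cells (0.35). Both lists had shares of higher genes (6 of 23 and 6 of 27) modestly above the 16.2% of all genes.

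Stress lists differed from one another. Of the unfolded protein and heat shock list 18 of 24 were looked at, 8 were higher and 0 lower, with a median of 0.72, against 4 higher and 9 lower and a median of -0.78 in TiCY qNSC2; against naive TiCY cells the list's median in 2 d knockout cells was -0.36. Hsph1, a cytosolic chaperone, had 256 CPM at 2 d and 56.9 CPM in naive cells, and 64.3 CPM at 2 d and 249 CPM when naive in TiCY cells, and was level against naive TiCY cells (0.04). Hspa5, the main chaperone of the endoplasmic reticulum, had 207 and 68.9 CPM, but naive TiCY cells held 792 CPM, against which the log2 ratio was -1.91. Atf4, a transcription factor of the integrated stress response, had 84.0 and 21.9 CPM, and its target Ddit3 99.2 and 28.4 CPM.

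The NRF2 list went both ways, with 22 of 24 looked at, 5 higher, 3 lower and a median of 0.45. Of all genes 16.2% were higher and 18.5% lower. Srxn1, which restores oxidised peroxiredoxins, had 140 CPM in 17 of 67 cells at 2 d and 3.25 CPM in 1 of 31 naive cells, a 43.2-fold difference (26.5 to 75.8). Gclc and Gclm, the subunits of the enzyme that limits glutathione synthesis, were lower, at 43.9 and 52.6 CPM at 2 d against 256 and 158 CPM in naive cells. One naive cell held 58.2% of the Gclc counts, and against naive TiCY cells neither was 2-fold lower (-0.85 for Gclc and -0.79 for Gclm). Slc7a11, the cystine importer, was lower by -1.34 but level against naive TiCY cells (0.03).

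Hypoxia genes were not higher as a group, with 16 of 23 looked at, 2 higher, 3 lower and a median of -0.29. Both higher ones are glycolytic. Ldha, lactate dehydrogenase A, had 237 CPM at 2 d and 53.0 CPM in naive cells, in 47 of 67 and 10 of 31 cells, and Pgk1, phosphoglycerate kinase, had 256 and 117 CPM. Relative to naive TiCY cells Ldha was still higher (3.56) and Pgk1 was under 2-fold (0.84). The lower ones, Kdm3a, P4ha1 and Ddit4, each had more than 50% of their naive counts in 1 cell (60.1%, 65.8% and 52.4%). Of the glycolysis list, 3 of 16 were higher and 1 lower, a share near that of all genes.

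Sterol and fatty acid genes were mixed. Of the cholesterol list all 26 were looked at, with a median of 0.29. Of these 6 were higher and 3 lower, beside 16.2% and 18.5% of all genes. Fdps, which makes farnesyl pyrophosphate, had 279 CPM at 2 d and 24.8 CPM in naive cells, in 47 of 67 and 8 of 31 cells, and Cyp51 had 104 and 17.1 CPM, which was under 2-fold against naive TiCY cells (0.52). Of 24 fatty acid oxidation genes 2 were higher and 3 lower, and Acsl3, which activates fatty acids, had 381 CPM at 2 d and 1390.7 CPM in naive cells.

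Astroglial genes mostly kept their level. Of 25 genes of the quiescent and astroglial list 24 were looked at, 2 were higher and 3 lower, with a median of -0.30, below the shares of all genes. Slc1a3 (GLAST), whose product was the sorting antigen, had 2175.6 CPM at 2 d and 4090.5 CPM in naive cells, and Slc1a2 8704.5 and 11964.8 CPM. Aldoc, a glycolytic enzyme of astrocytes, had 6113.2 and 2591.8 CPM. Sox9, a transcription factor of astroglia and stem cells, was the clearest exception on the low side. It ran from 0 to 1384.4 CPM per cell at 2 d (median 73.2) and from 19.2 to 2538.1 CPM in naive cells (median 674), and its sum was lower by a log2 ratio of -2.65; knockout astrocytes and aNSC had -3.24 and -2.74. Fgfr3 had 62.2 and 210 CPM. Gjb6, a gap junction gene, was higher by 2.01 but lower against naive TiCY cells (-0.60), and Cldn10 was lower by -1.12 but 0.10 against naive TiCY cells.

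The proliferative programme was barely visible. Of 22 genes of the G2 and mitosis list 0 were looked at, and Mki67 was counted in 2 of 67 cells at 2 d and 0 of 31 naive cells. Of the S phase list 8 of 23 were looked at, with 2 higher and 0 lower, beside 16.2% and 18.5% of all genes. Ccnd1, the cyclin that opens the G1 phase, had 31.3 CPM in 12 of 67 cells at 2 d and 1.02 CPM in 2 of 31 naive cells, and 222 and 1.02 CPM in TiCY cells. Its edgeR adjusted p was 0.026 for the shared time term. Ccnd2 was near level, at 768 and 693 CPM.

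Of the list for activated stem cells and transit amplifying progenitors 17 of 18 were looked at, with 6 higher, 0 lower and a median of 0.59, which was -0.05 against naive TiCY cells. Tubb5, a beta-tubulin, had 430 CPM at 2 d and 94.1 CPM in naive cells, in 59 of 67 and 18 of 31 cells. Egfr, the receptor that marks activated stem cells, had 98.3 and 32.5 CPM. It had the opposite sign against naive TiCY cells (-0.51), which held 142 CPM.

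The counts of niche signalling genes past 2-fold were small, and they stand beside the 16.2% higher and 18.5% lower of all genes. Of 9 Notch genes 1 was higher and 0 lower, and Notch2 had 218 CPM at 2 d and 372 CPM in naive cells. Of 14 BMP and Id genes 1 was higher (Id1, 113 and 43.3 CPM) and 2 lower, with a median of -0.73. Of 19 Wnt genes 2 were higher and 6 lower, with a median of -0.52; Fzd1, a Wnt receptor, had 30.2 CPM at 2 d and 243 CPM in naive cells, and Tcf7l2, a transcription factor of the pathway, 319 and 720 CPM. When naive TiCY cells were the reference, neither was 2-fold lower, with log2 ratios of -0.80 for Fzd1 and -0.01 for Tcf7l2. Among lipid mediator receptors, S1pr1 had 164 CPM at 2 d and 356 CPM in naive cells, opposite in direction to S1pr3, and Lpar1, a receptor for lysophosphatidic acid, had 105 and 12.2 CPM in 22 and 2 cells.

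**Figure D4:**
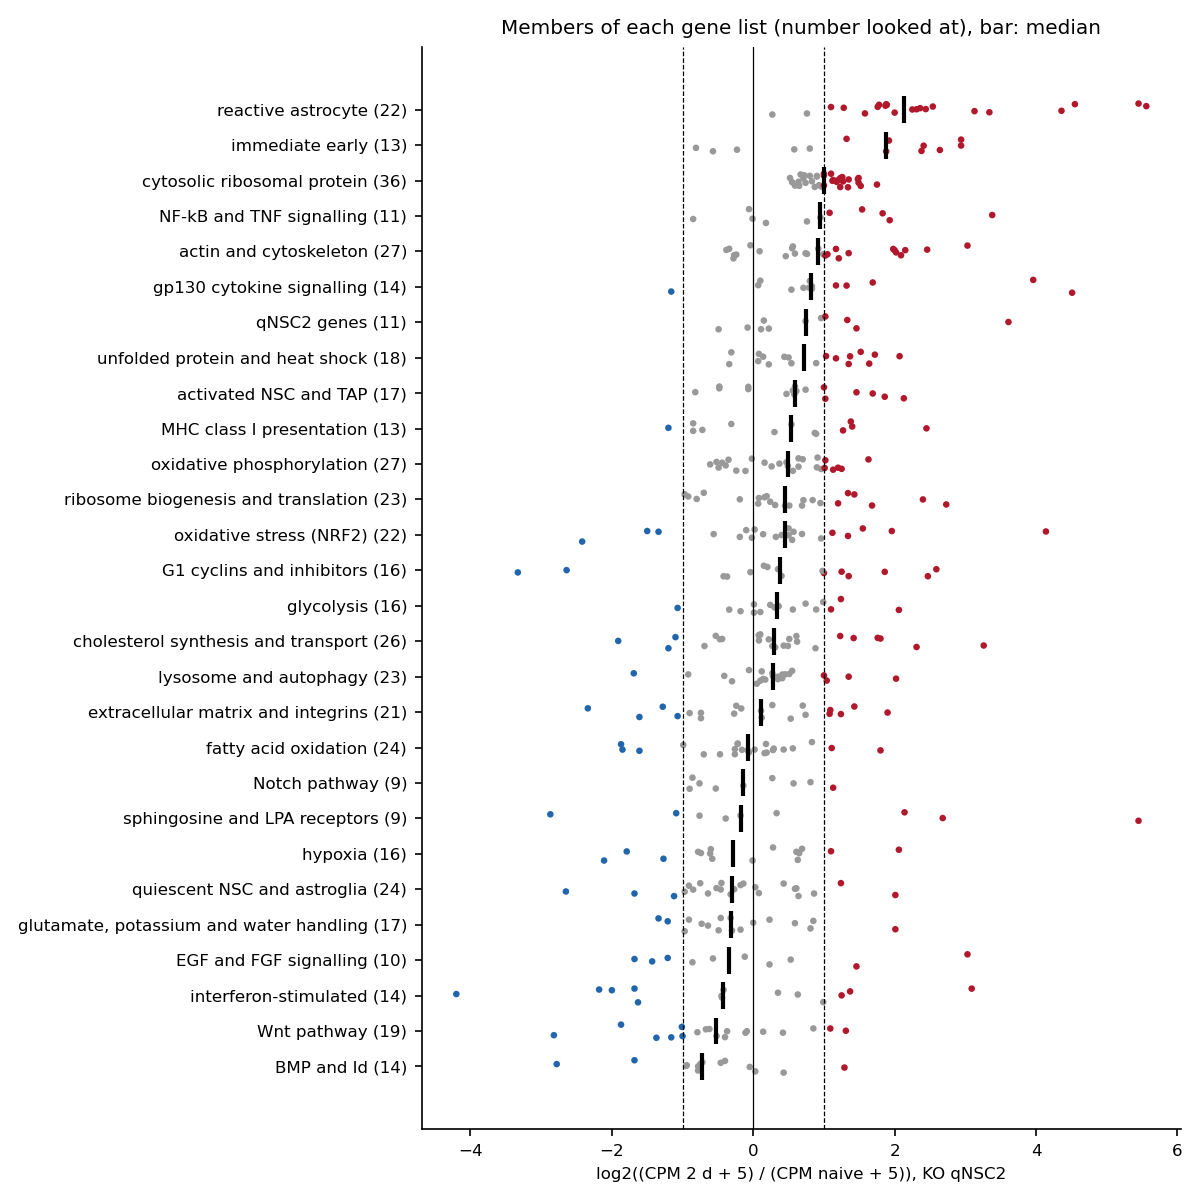
Each point is a gene of the list named on its row, for lists with at least 9 genes looked at; the horizontal axis is the log2 ratio of 2 d to naive knockout qNSC2 and the bar is the list's median. The reactive astrocyte genes lie furthest to the right with a median of 2.13, followed by the immediate early genes at 1.88, while the BMP and Id list has a median of -0.73.

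The other genes named as highest include several with no place in these lists. Tnni3, a troponin subunit of heart muscle, had 147 CPM in 19 of 67 cells at 2 d and 0 in naive cells, at least 242-fold higher, whereas TiCY cells had 0 CPM at 2 d and 17.2 CPM when naive. Gap43, which encodes a growth cone protein, had 85.2 CPM in 18 cells at 2 d and 1 count in the naive arm, a ratio of 419 with a counting interval of 75.1 to 16583.6; TiCY cells at 2 d had 507 CPM, and the edgeR adjusted p was 0.0017. Armc5, Igsf3, Tor1b and Lcmt1 had log2 ratios of 4.75, 4.14, 3.86 and 3.76, and 49.2% of the Armc5 counts came from 1 cell. Their TiCY log2 ratios were lower, at 1.34, 1.16, 2.38 and 0.77, and Igsf3 was just under 2-fold against naive TiCY cells (0.93). Tnni3, Igsf3, Fdps, Fkbp5 and Anxa2 overlap other genes on their strand, and whether counting used the strand is not given in the sources used here.

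Among the lowest genes, Gpm6a and Adamts18 were broadly detected in naive cells. Gpm6a, a neuronal and glial membrane glycoprotein, ran from 0 to 350 CPM per cell at 2 d (median 38.4) and from 0 to 4906 CPM in naive cells (median 584). Its sums were 79.4 and 909 CPM, it was lower in TiCY cells as well (21.6 and 429 CPM), and the edgeR adjusted p was 0.019. Adamts18, a secreted metalloprotease, had 33.4 CPM in 10 of 67 cells at 2 d and 515 CPM in 21 of 31 naive cells, and 0.569 and 346 CPM in TiCY cells, with an edgeR adjusted p of 0.043. The other 10 of the 12 lowest, which include Cul2, Prkaa2, Ptpn9 and Stk17b, had log2 ratios of -4.45 to -3.21 and were counted in 8 to 13 of the 31 naive cells. Rasgrf1 had 1 count at 2 d and 547 in naive cells, these in 5 of 31 cells.

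How far the 25 calls rest on the 5 TiCY cells at 2 d was not tested, since the genotype term cannot be fitted without that sum. A fit of time only on all 4 sums called 0 genes by edgeR, with 1233 at an unadjusted p under 0.05, while DESeq2's Wald test with genotype and time called 485. For some called genes the TiCY arm held most of the level at 2 d. Col5a3, a collagen chain, had 18.5 CPM at 2 d and 0 in naive knockout cells, against 348 and 1.70 CPM in TiCY cells, and Hspb1, a small heat shock protein, had 14.3 and 0 CPM against 246 and 0 CPM.

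Other knockout cells of the same plates had part of the response. Gfap was higher in knockout vSVZ astrocytes, at 1254.8 CPM at 2 d and 61.4 CPM in naive cells, and in knockout aNSC, at 2235.9 and 230 CPM, but had 37.5 and 12.2 CPM in neuroblasts. S1pr3, with a log2 ratio of 5.45 in knockout qNSC2, had 1.18 in knockout astrocytes and 2.92 in knockout aNSC. Osmr had 22.7 CPM at 2 d and 4.31 CPM when naive in knockout astrocytes and 0 in both aNSC arms. In those astrocytes 16 of the 22 reactive genes were at least 2-fold higher, beside 15.3% of all genes looked at there (17.5% were lower and 32.8% differed either way). None of these differences between cell types was tested, and naive aNSC and neuroblasts rest on 7 and 8 cells.

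**Figure D5:**
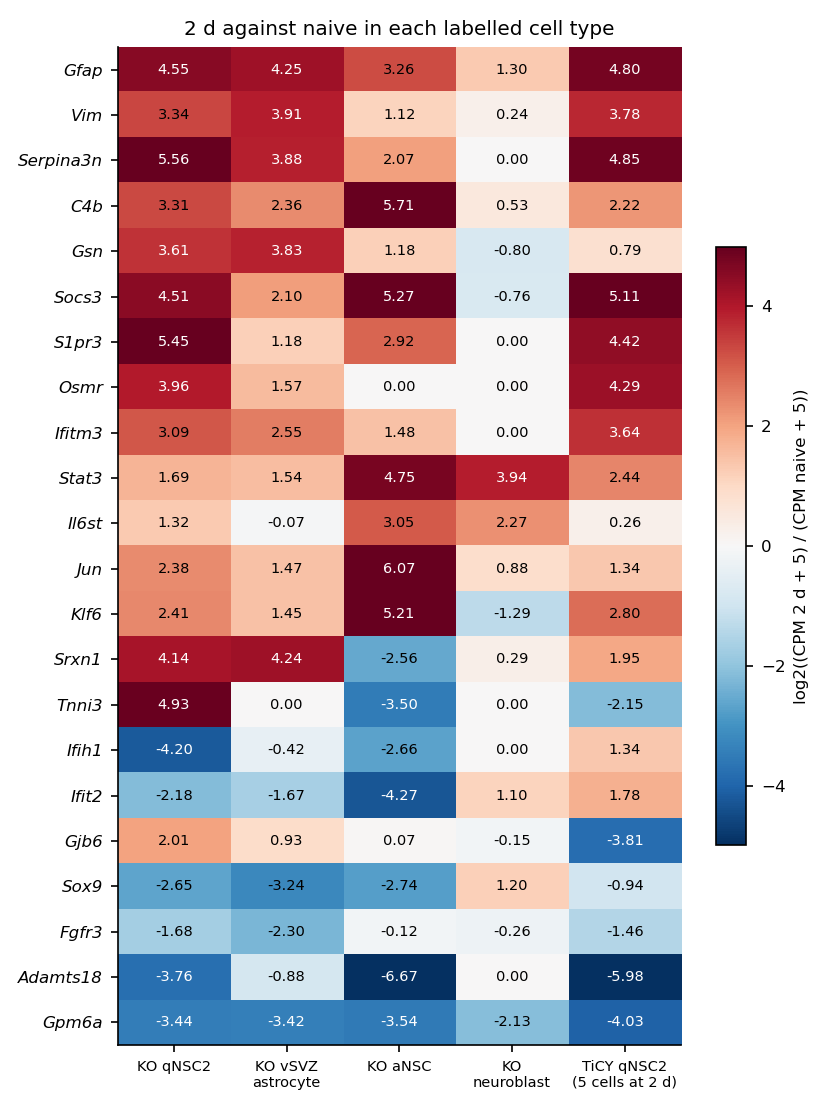
Rows are genes and columns are, from left, knockout qNSC2, knockout vSVZ astrocytes, knockout aNSC, knockout neuroblasts and TiCY qNSC2; colour and printed number give the log2 ratio of 2 d to naive on the CPM + 5 scale. Gfap stands at 4.55 in knockout qNSC2, and Gsn at 3.61 in knockout qNSC2 and 3.83 in knockout astrocytes but 0.79 in TiCY qNSC2.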

How the data were processed

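RNA was measured in single sorted cells by Smart-seq3, per the labels' protocols. The deposited table holds whole-number counts of reads per gene and cell; STAR, featureCounts and GRCm38 (mm10) are named per the submitters' processing notes, and their versions, the annotation and the use of strand are not stated there. Of 2584 cells 1981 matched a label and 603 were not used. Counts of 67 and 31 cells were summed per arm, scaled to CPM and compared as log2 ratios with 5 CPM added (Python 3.11.15, scipy 1.17.1); a 2-fold ratio counted as called. The arms are 1 letter each, so no test was made and other settings give values only. The time term was fitted with edgeR 4.0.16 on 4 sums (genotype and time, trimmed mean scaling). Coordinates are GENCODE M21 on GRCm38, 1-based; promoters are from RefSeq. Genes named are the 12 highest and 12 lowest that were counted in at least 25% of cells of the higher arm and kept a 2-fold ratio as a mean over cells and without the top cell, mitochondrial genes and pseudogenes left out; up to 6 members of a list past 2-fold each way and 4 of its most abundant; and the receptor genes. Other genes were named after their values were seen. The members and all 44 lists were chosen with earlier results of these data known. The p-values rest on 1 residual degree of freedom and a dispersion prior shared across genes, with 12.6 prior degrees of freedom. With sums that may share mice, they do not measure the spread between mice.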

Additional observations from a re-analysis of the deposited data

Results flagged for a closer look

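For 13 of the 139 genes named, the 2 d knockout and the 2 d TiCY qNSC2 lay on opposite sides of their naive cells by at least 2-fold; the difference between the genotypes was not tested, and the TiCY 2 d value rests on 5 cells. Higher in knockout and lower in TiCY cells by log2 ratio were Tnni3 (4.93 and -2.15), Tnxb (3.73 and -1.01), Rsph1 (3.30 and -1.02), Lgals3 (2.31 and -1.62), Hsph1 (2.07 and -1.87), Gjb6 (2.01 and -3.81), Hspa5 (1.52 and -1.67), Psme1 (1.38 and -1.94) and Cx3cr1 (1.15 and -1.79). Lower in knockout and higher in TiCY cells were Ifih1 (-4.20 and 1.34), Ifit2 (-2.18 and 1.78), Foxj1 (-1.40 and 1.90) and Erap1 (-1.20 and 1.07), of which the first 2 are interferon-stimulated. Letter, background label and genotype cannot be told apart in these values.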

How the results depend on the processing

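Of the 114 named genes past 2-fold, 92 stayed so in the same direction under every applicable alternative that kept the naive knockout cells. A2m, Rasgrf1, Col5a3 and Hspb1 are among the 92 but were not looked at, so no alternative could change their ratio. Leaving out cells with more of another type's markers removed 0 cells and could change no gene. The setting without the top cell drops that cell in both arms. Ptx3 passed it, though it fell short of 2-fold with only the top 2 d cell left out. The count of higher genes was 860 with 20 CPM added, 2641 with no filter on low values, 588 at a mean of at least 50 CPM and 2427 without the top cell of each gene; that of lower genes was 1094, 2725 and 840 under the first 3. The filters change how many genes are looked at, and leaving out 1 cell removes a larger share of 31 cells than of 67; for the added CPM the cause was not tested. With naive TiCY cells in place of naive knockout cells, 71 of the 105 looked at stayed past 2-fold and 11 had the opposite sign: Fkbp5 -1.0, Il6st -0.79, Fosb -0.69, Ifit3b 0.35, Rps24 -0.23, Slc7a11 0.03, Hspa5 -1.91, Cldn10 0.10, Gjb6 -0.60, Egfr -0.51 and Itgb1 -0.30. The 25 calls of the shared time term became 194 with no filter but 1 count, 79 with DESeq2 size factors, 485 with DESeq2's Wald test, and 85, 77 and 44 in fits of time only without the 2 d TiCY, naive TiCY or naive knockout sum. With time only on all 4 sums edgeR called 0, with 1233 genes at an unadjusted p under 0.05; the cause was not tested. No paired analysis was possible because the arms compared share 1 letter only. A sum of 1 letter per arm gives no spread between mice, and genes under 10 CPM, most interferon-stimulated genes included, were not detectable enough at this depth to give a direction.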

Other observations

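Extracellular matrix genes went both ways in the knockout qNSC2, with 5 of 21 higher and 4 lower at 2 d, beside 16.2% and 18.5% of all genes. Sparc, which encodes a matrix-binding glycoprotein, had 1088.6 CPM at 2 d and 509 CPM in naive cells, and Itgb1, the common beta chain of matrix receptors, had 59.8 and 19.1 CPM. Lama2, a laminin chain, had 93.1 CPM at 2 d and 492 CPM in naive cells, of which 1 naive cell held 42.3%, and Timp3, an inhibitor of metalloproteases, had 110 and 237 CPM. Set against naive TiCY cells, the log2 ratios of Sparc (0.79) and Timp3 (-0.21) were under 2-fold and Itgb1 had the opposite sign (-0.30).

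Ependymal genes also differed among themselves. Rsph1, a radial spoke protein of motile cilia, had 58.3 CPM at 2 d and 1.42 CPM in naive cells, in 21 of 67 and 2 of 31 cells. Foxj1, the transcription factor of motile cilia, had 24.5 CPM at 2 d and 73.1 CPM in naive cells, but was level against naive TiCY cells (log2 ratio -0.01). The 12 ependymal markers together took 0 to 2341 CPM per cell at 2 d (median 134) and 0 to 1128.7 CPM in naive cells (median 142).

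Nr2e1, which encodes Tlx and drives the TiCY recombinase, had 368 CPM at 2 d and 239 CPM in naive knockout cells, counted in 54 of 67 and 28 of 31 cells.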
